A study of Mus musculus with 14 samples.

Results

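The transcripts described here were those of 10 genes of the matrix metalloproteinase system. They were 7 matrix metalloproteinases (MMPs), Mmp2, Mmp3, Mmp9, Mmp12, Mmp13, Mmp14 and Mmp19, and 3 tissue inhibitors of metalloproteinases (TIMPs), Timp1, Timp2 and Timp3. The genes were chosen by name, and all 10 were found among the 55487 genes of the count tables. RNA was sequenced from cultured bone marrow mesenchymal stromal cells (MSC) and from sorted bone marrow cells that lacked lineage markers. These were LSK cells, which carried Sca1 and c-kit and are rich in stem cells, and LK cells, which carried c-kit and are mostly myeloid progenitors. The question was how IL-1β, an inflammatory cytokine, changes these transcripts in each population.

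MSC were grown for 21 days from the marrow of wild-type C57BL/6 mice, and received PBS (2 libraries, replicates 2 and 3) or IL-1β at 5 ng/ml (2 libraries, replicates 1 and 2) for 72 h. LSK and LK cells were sorted from lethally irradiated C57BL/6 recipients of marrow from Mx1Cre; Jak2VF/+ mice in which pI-pC had been given to switch on Cre, so the PBS and the IL-1β mice both carried the mutant Jak2 allele. Mx1Cre is driven by an interferon-responsive promoter. The recipients were injected intraperitoneally with PBS (3 libraries per population) or with IL-1β at 0.5 μg per dose (2 libraries per population), 3 times a week for 16 weeks. Blood cells of the recipients that survived irradiation were not told apart from donor cells. No wild-type LSK or LK libraries and no MSC of Jak2VF/+ mice were analysed here. The labels do not say whether the replicates were separate mice or cultures, so p-values measure the spread between these libraries.

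MMPs are zinc-dependent enzymes that cut proteins of the extracellular matrix, and most are made as inactive precursors. Mmp13 is the main interstitial collagenase of mice, Mmp3 is stromelysin-1, Mmp2 and Mmp9 are the gelatinases, Mmp12 is macrophage elastase, and Mmp14 is a membrane-bound collagenase that also activates proMmp2. TIMPs bind the active site of MMPs and block it. Timp2 also takes part in the activation of proMmp2 by Mmp14, and Timp3 also inhibits several ADAM proteases. In bone marrow these enzymes are known for matrix turnover and for the release of progenitors from their niche.

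Mmp13, Mmp12 and Mmp3 lie in a cluster of MMP genes on chromosome 9, and they had the largest log2 fold changes in size of the members in MSC, of which that of Mmp13 passed the test. The sequence before their start sites is therefore shown. The motif TGANTCA, with any letter at N, takes in the site bound by AP-1 (Fos and Jun proteins) and is looser than that site. It was searched in RefSeq promoters of GRCm38.p6 that run from 250 bases before the start to 50 bases after it. The motif reads the same on both strands. It was present in 3 of the 8 promoter sequences of 7 members that had one, and in 7.81% of all 32851 promoters. It began 35 bases before the start of Mmp13, 46 before that of Mmp3 and 44 before the second of the starts of Mmp12. In the cluster, 8 of 10 MMP genes held it, also Mmp10 at 63 bases, whereas Mmp8 and Mmp27 did not. The match of Mmp20 was TGAATCA, and the other matches in the cluster were TGACTCA or TGAGTCA. It was absent from the promoters of the 12 MMP and TIMP genes with a sequence that lie elsewhere, Mmp14, Timp1, Timp2 and Timp3 among them. The Timp1 sequence held TGAGTAA, which differs from the motif in a single letter, so a promoter without a match can still hold a near match. Mmp2, Mmp9 and Mmp19 had no sequence and were not searched. An NF-κB-type motif (GGGA, then any 2 letters, then TTCC) was searched on both strands and was found in none of the 8 member sequences and in 1.47% of all promoters. The 250 bases before each start follow, 5′ to 3′, on the plus strand of GRCm38, with the TGANTCA match in capitals.
Mmp13, chr9:7272264-7272513: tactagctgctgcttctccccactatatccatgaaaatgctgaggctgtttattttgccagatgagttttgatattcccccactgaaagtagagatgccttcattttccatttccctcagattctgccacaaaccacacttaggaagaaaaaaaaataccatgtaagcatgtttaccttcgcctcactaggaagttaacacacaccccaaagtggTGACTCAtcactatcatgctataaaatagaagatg
Mmp12 (second start), chr9:7347124-7347373: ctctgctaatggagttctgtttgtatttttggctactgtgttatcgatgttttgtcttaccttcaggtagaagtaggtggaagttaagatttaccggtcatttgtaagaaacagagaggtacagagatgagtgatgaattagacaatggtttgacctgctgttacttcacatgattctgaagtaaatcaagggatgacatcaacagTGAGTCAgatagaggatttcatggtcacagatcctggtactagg
Mmp3, chr9:7445572-7445821: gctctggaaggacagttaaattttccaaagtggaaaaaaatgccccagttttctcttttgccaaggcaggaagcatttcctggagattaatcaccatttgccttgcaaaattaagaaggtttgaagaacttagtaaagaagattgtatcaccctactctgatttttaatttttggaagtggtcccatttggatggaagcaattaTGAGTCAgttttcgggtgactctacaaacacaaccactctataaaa

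The libraries held 4393233 to 30871055 counted read pairs. In LSK and LK cells each IL-1β library had fewer counts than any PBS library of that population. In MSC, PBS replicate 3 stood apart: Xist, the RNA of the inactive X chromosome, had 0 counts there and 47.2 to 69.0 CPM in the other MSC libraries. Ddx3y, a gene on the Y chromosome, was at 80.4 CPM there, 43.0 CPM in PBS replicate 2, and 65.3 and 66.6 CPM with IL-1β. In the sorted cells Xist was at 140 to 1052 CPM and Ddx3y at most at 0.117 CPM. The sex of the cells thus differed between MSC libraries and between populations, and its part in the member values was not tested. The PBS pair of MSC differed more than 2-fold at 902 of 12589 genes, against 31 of 12622 genes for the IL-1β pair. In LSK cells PBS replicate 2 differed more than 2-fold from the other PBS libraries at 2711 and 2791 genes, whereas these differed from each other at 563 genes. Expression is given in CPM, the counts of a gene per 1e6 counts of its library, with TMM factors computed within the population. A gene was called when edgeR's quasi-likelihood test gave a Benjamini-Hochberg adjusted p under 0.05 over all genes tested and the log2 fold change exceeded 0.5 in either direction. Transcripts of macrophage marker genes were abundant in the MSC cultures. The summed level of 18 macrophage markers was 15187 and 19175 CPM in the PBS libraries, against 36102 and 37011 CPM after IL-1β. That of 17 mesenchymal markers was 2074 and 4327 CPM in the PBS libraries, against 4627 and 5135 CPM after IL-1β. The macrophage lysozyme gene Lyz2 and the F4/80 gene Adgre1 were high in all 4 MSC libraries, and Cd163 was at or near 0. The mesenchymal collagen genes Col1a1 (814 and 406 CPM) and Col1a2 (1068 and 629 CPM) were high in both PBS libraries as well, while Lepr had 0 counts there. The 10 neutrophil markers summed to between 1.81 and 10.3 CPM. In such mixed RNA, fewer cells of a type and less RNA per cell cannot be told apart.

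In MSC, Mmp14, Mmp13 and Mmp19 rose with IL-1β. These were 3 of the 10 members, all tested, and none fell. Over all 13239 genes tested 11.4% were called, and 7.14% were called higher. The members' log2 fold changes had a median of 0.52 against 0.00437 in all genes tested. PBS and IL-1β libraries were fully separated in 6 of the 10 members, 5 of which were higher and 1 lower with IL-1β, beside 61.2% of all genes tested. All of these values sit beside the rise in summed macrophage markers, 10 of which were called higher among 17 tested, and whose part in the result was not tested. Of the other marker lists in MSC, 3 of 15 tested mesenchymal genes rose, 1 rose and 1 fell of 5 osteoclast genes, 1 rose of 2 neutrophil genes, 1 fell of 5 stem and progenitor genes, and 0 of 3 endothelial genes were called.

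**Figure D1:**
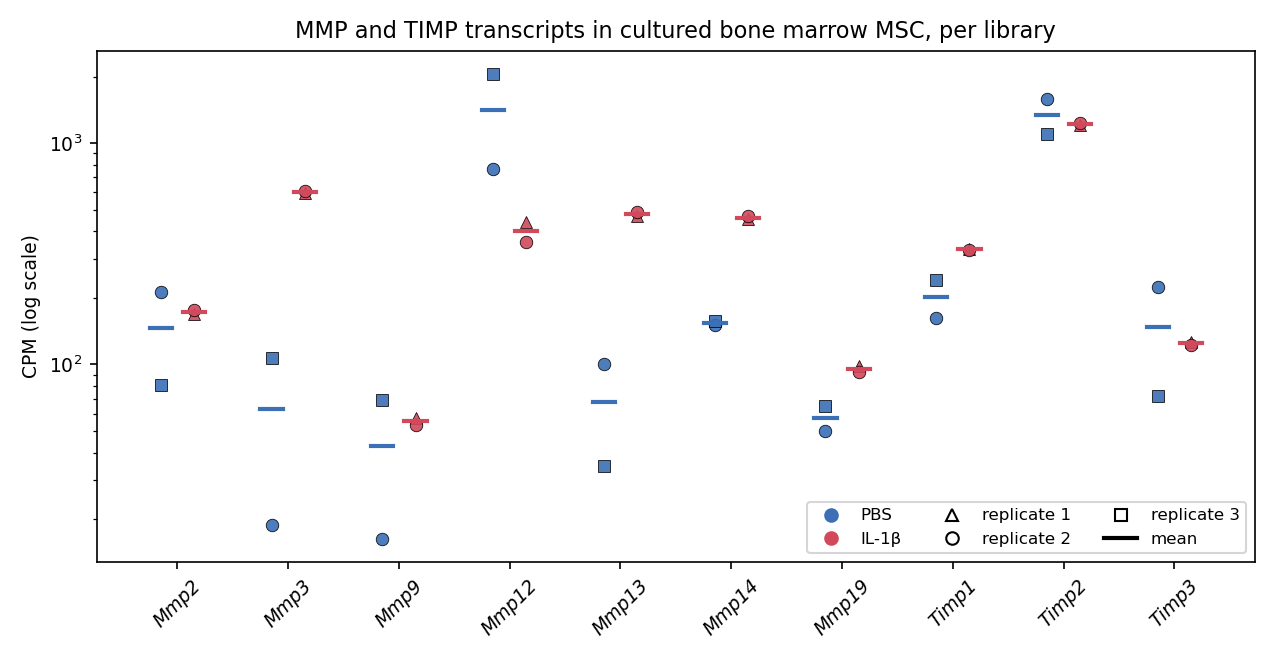
CPM (log scale) of the 10 transcripts in each of the 4 MSC libraries, blue for PBS and red for IL-1β, with the symbol giving the replicate and the bar the mean of 2 libraries. The red points of Mmp14, Mmp13, Mmp3, Mmp19 and Timp1 sit above all blue points of their gene, and those of Mmp12 below them. The PBS libraries lie far apart for Mmp2, Mmp3, Mmp9, Mmp12, Mmp13 and Timp3.

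The collagenase Mmp13 (chr9:7272514-7283331) was at 100 and 34.9 CPM in the PBS libraries (replicates 2 and 3) and at 470 and 491 CPM in the IL-1β libraries (replicates 1 and 2). Both IL-1β values were above both PBS values. The log2 fold change was 2.86 (SE 0.54, 7.25-fold) with an edgeR adjusted p of 0.0430. It was 2.27 without PBS replicate 3 and 3.79 without PBS replicate 2, and called in both. The call was lost without IL-1β replicate 1 (adjusted p = 0.324), without IL-1β replicate 2 (adjusted p = 0.332) and without a filter on low counts (adjusted p = 0.267).

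The membrane-bound Mmp14 (chr14:54431612-54445364) was at 152 and 157 CPM with PBS and at 454 and 468 CPM with IL-1β. The 2 libraries of each treatment were close together and the treatments were well apart. Its log2 fold change of 1.58 (SE 0.10, 2.99-fold) had the lowest edgeR adjusted p of the members, 0.00176. Without IL-1β replicate 1 the log2 fold change was 1.61 and the adjusted p 0.0654, so the call was lost there.

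Mmp19 (chr10:128790910-128800824), an enzyme that cuts basement membrane proteins, was at 49.9 and 64.7 CPM with PBS and at 98.1 and 92.9 CPM with IL-1β. The treatments did not overlap. The log2 fold change was 0.73 (SE 0.15, 1.66-fold; edgeR adjusted p = 0.0327). It was not called without IL-1β replicate 1 (adjusted p = 0.340) or without IL-1β replicate 2 (adjusted p = 0.260).

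Mmp3 (chr9:7445822-7455975) had the highest log2 fold change of the members in MSC but was not called. It was at 18.8 and 107 CPM with PBS and at 597 and 610 CPM with IL-1β. The PBS libraries differed from each other by more than 5-fold, and both were below the IL-1β libraries. The log2 fold change was 3.22 (SE 0.84), with an edgeR adjusted p of 0.0880. DESeq2 (adjusted p = 0.0131) and limma-voom (adjusted p = 0.0245) called it. It was also called without PBS replicate 2 (log2 fold change 2.50) and without PBS replicate 3 (5.00).

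Mmp12 (chr9:7344381-7369499) went the other way without reaching the threshold. It was at 766 and 2055 CPM with PBS and at 443 and 357 CPM with IL-1β, so both IL-1β libraries were below both PBS libraries. The log2 fold change was -1.82 (SE 0.51), with an edgeR adjusted p of 0.0981, and DESeq2 gave an adjusted p of 0.0481. Without PBS replicate 3, the library with the highest value, it was -0.93, and without PBS replicate 2 it was -2.35, called in both. The 18 macrophage markers had a higher sum in the IL-1β libraries than in the PBS libraries, as given above. Lyz2 alone was at 7133 and 4803 CPM with PBS and at 19873 and 20803 CPM with IL-1β. Of the 17 markers tested, 14 had a log2 fold change above 0 and 0 were called lower. Lower values with IL-1β were those of Cd68 (1520 and 1089 CPM against 1011 and 867 CPM), Tyrobp (777 and 780 against 613 and 626) and Fcer1g (689 and 710 against 665 and 632). The 3′ end of Mmp12 overlaps Mmp1b, which lies on the opposite strand, and read pairs had been counted by strand.

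The gelatinases did not separate by treatment. Mmp2 (chr8:92827291-92853420) was at 212 and 80.9 CPM with PBS and at 168 and 176 CPM with IL-1β. Mmp9 (chr2:164940780-164955850) was at 16.3 and 69.4 CPM with PBS and at 57.5 and 53.4 CPM with IL-1β. In both genes the IL-1β values lay between the PBS values, and the log2 fold changes were 0.25 (SE 0.47) and 0.32 (SE 0.65). Their sign turned when a PBS library was left out: Mmp2 was at -0.29 without PBS replicate 3, and Mmp9 at -0.31 without PBS replicate 2. With a single PBS library left, Mmp2 was called without PBS replicate 2 (1.10) and Mmp9 without PBS replicate 3 (1.77).

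None of the 3 inhibitors was called in MSC. Timp1 (chrX:20870166-20874735) was at 162 and 241 CPM with PBS and at 333 and 330 CPM with IL-1β. The treatments did not overlap, with a log2 fold change of 0.71 (SE 0.19) and an edgeR adjusted p of 0.0696; DESeq2 gave an adjusted p of 0.00953, and without PBS replicate 3 it was called (log2 fold change 1.04). Timp2 (chr11:118301069-118355740) was at 1583 and 1097 CPM with PBS and at 1209 and 1230 CPM with IL-1β. Timp3 (chr10:86300372-86349506) was at 223 and 72.1 CPM with PBS and at 127 and 123 CPM with IL-1β. For Timp2 and Timp3 the IL-1β values again lay between the PBS values, with log2 fold changes of -0.14 (SE 0.19) and -0.23 (SE 0.55). Timp3 was called in opposite directions when a PBS library was left out, at 0.80 without replicate 2 and at -0.83 without replicate 3.

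**Figure D2:**
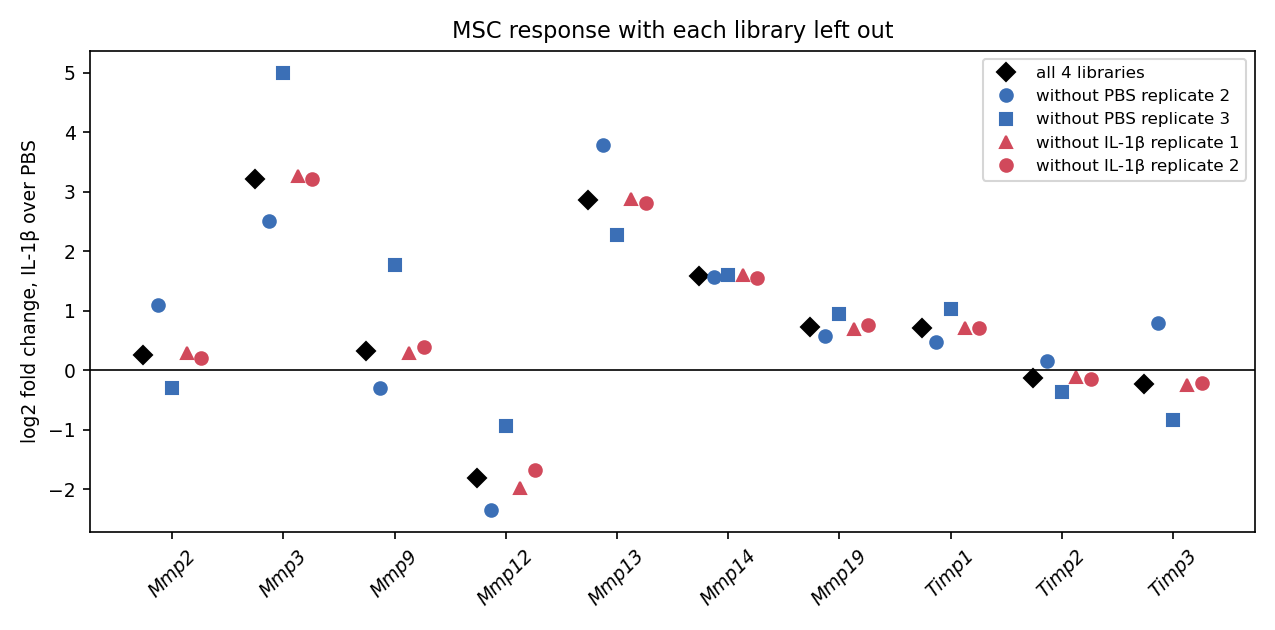
Log2 fold change of IL-1β over PBS in MSC for each member, with all 4 libraries (black) and with each library left out in turn (blue for PBS, red for IL-1β libraries). Mmp14 stays between 1.55 and 1.61, whereas Mmp2, Mmp9, Timp2 and Timp3 lie on both sides of 0.

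Summed per gene length, the balance of the 7 MMPs and the 3 TIMPs differed between the MSC treatments. RPKM, CPM divided by gene length in kilobases, was used for levels of different genes. The summed MMP level was 308 and 539 RPKM in the PBS libraries, against 931 and 890 RPKM after IL-1β. The summed TIMP level was 729 and 680 RPKM in the PBS libraries, against 883 and 840 RPKM after IL-1β. The ratio of MMP to TIMP transcripts was thus 0.423 and 0.792 in the PBS libraries, against 1.05 and 1.06 after IL-1β. Mmp12 made up 40.6% and 63.8% of the summed MMP level in the PBS libraries, against 8.28% and 6.64% after IL-1β. Mmp3 made up 4.01% and 13.4% in the PBS libraries, against 44.9% and 45.5% after IL-1β. These sums are a description of 2 libraries per treatment and were not tested.

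The order of the members by level shifted accordingly. With PBS the highest mean RPKM was that of Timp2 (411), followed by Timp1 (272) and Mmp12 (235), and the ranges of Timp1 and Mmp12 overlapped. The other 7 members had means of 14.6 to 51.7 RPKM, and each neighbouring pair among them overlapped. With IL-1β the order was Timp1 (458), Mmp3 (411), Timp2 (384), Mmp13 (221), Mmp14 (95.0), Mmp12 (68.1), Mmp2 (62.8), Mmp19 (33.2), Mmp9 (19.3) and Timp3 (18.8). Only Mmp12 and Mmp2, and Mmp9 and Timp3, overlapped with their neighbour there.

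Of the 17 other MMP and TIMP genes of the mouse, 9 were tested in MSC and 2 rose. Mmp8, the neutrophil collagenase, was at 1.00 and 1.05 CPM with PBS and at 8.85 and 7.68 CPM with IL-1β (log2 fold change 2.99, SE 0.29, edgeR adjusted p = 0.00468). Mmp27 was at 4.67 and 4.14 CPM with PBS and at 11.2 and 7.77 CPM with IL-1β (log2 fold change 1.14, SE 0.27, edgeR adjusted p = 0.0494). Mmp10, stromelysin-2, was at 6.84 and 14.2 CPM with PBS and at 22.4 and 20.0 CPM with IL-1β, and was not called (log2 fold change 0.96, edgeR adjusted p = 0.117). All 3 genes lie in the chromosome 9 cluster with Mmp13, Mmp12 and Mmp3. Of these 6 tested neighbours, Mmp12 alone had lower values with IL-1β.

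**Figure D3:**
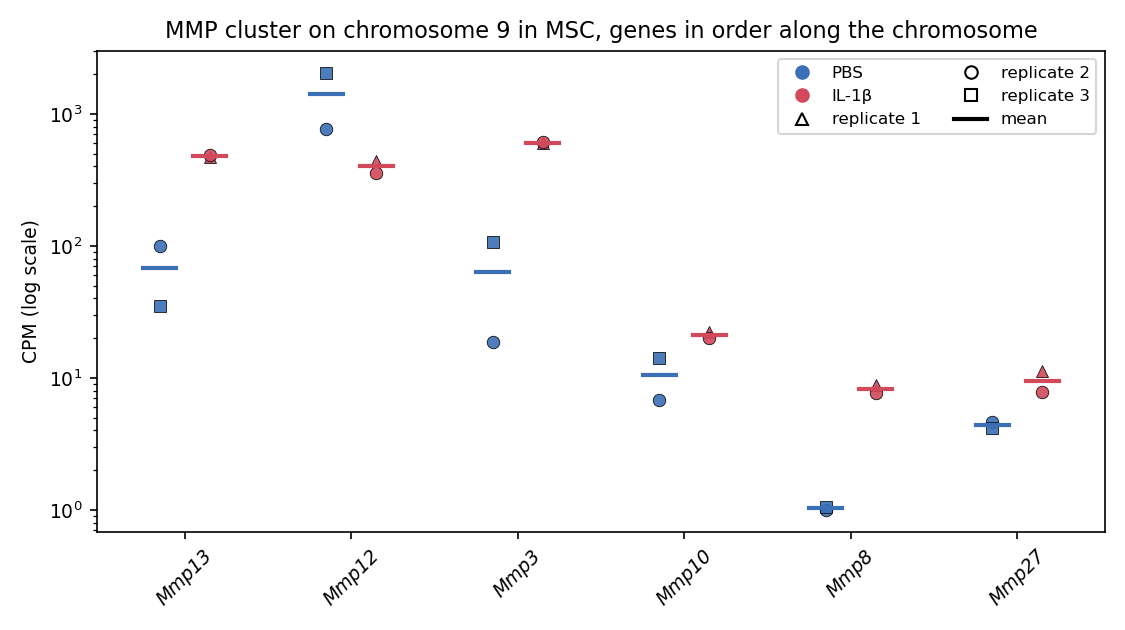
CPM (log scale) in MSC of the 6 tested MMP genes of the chromosome 9 cluster, in their order along the chromosome (not to scale), blue for PBS and red for IL-1β, with the bar at the mean of 2 libraries. In 5 of the genes both IL-1β libraries lie above both PBS libraries, and in Mmp12 they lie below.

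Among the genes listed as MMP regulators, 3 of 9 tested rose in MSC and none fell. Lcn2, a lipocalin whose human form makes a complex with MMP9, was at 0.667 and 0.828 CPM with PBS and at 50.7 and 54.5 CPM with IL-1β (log2 fold change 6.07, SE 0.19). The proprotein convertases Pcsk5 (log2 fold change 4.68, from 3 counts in both PBS libraries together) and Furin (0.70) also rose; Furin cleaves proMmp14. Of 6 tested genes of plasminogen activation, Plaur, the urokinase receptor, fell by 0.82 on the log2 scale and none rose. Of 13 tested ADAM and ADAMTS proteases, Adam9 (0.94) and Adam17 (0.80) rose and none fell. Of 5 cathepsin genes, counting the inhibitor Cst3, Ctsl (1.06) rose. Of 11 tested subunits of AP-1 and NF-κB, Relb (0.98), Nfkb2 (0.75) and Fosl2 (0.69) rose and none fell. The share called over all genes tested is the 11.4% given above. The median log2 fold change was 0.17 for the other MMP and TIMP genes, -0.54 for plasminogen activation, 0.22 for the regulators, 0.48 for ADAM and ADAMTS, 0.18 for the cathepsins and 0.30 for AP-1 and NF-κB.

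All 10 members were at higher levels in MSC than in the sorted cells. For each of them the lowest MSC library was above the highest LSK or LK library, by a factor of 2.82 for Mmp14, 3.84 for Mmp9, 4.84 for Mmp19 and 432 for Timp1. The populations differ in source, culture, genotype and sex of the cells, so these levels are a description with no test. Timp1 ranged from 216 to 472 RPKM in MSC, and reached at most 0.499 RPKM in LSK and 0.175 RPKM in LK cells. Mmp13 ranged from 15.8 to 221 RPKM in MSC, and reached at most 0.0829 RPKM in LSK and 0.0563 RPKM in LK cells. Mmp14 was nearest to MSC in LK cells, at 6.59 to 10.7 RPKM against 30.1 to 96.1 RPKM in MSC.

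**Figure D4:**
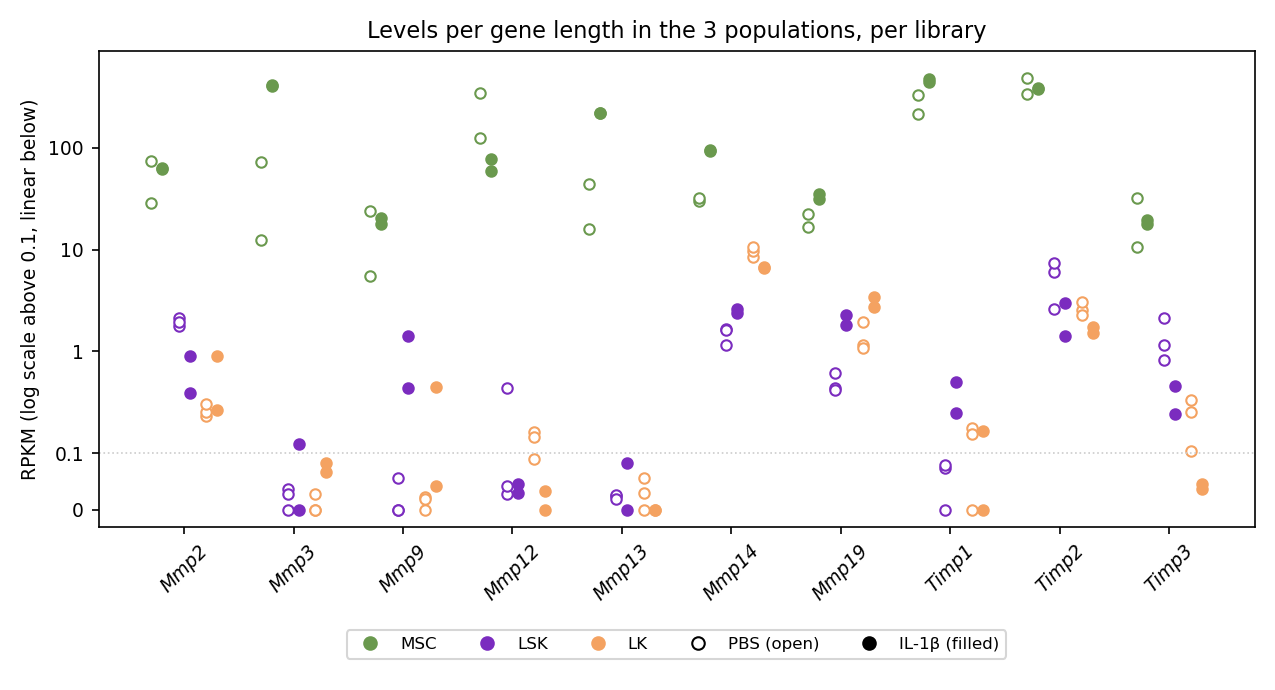
Level of each member per gene length (RPKM, log scale above 0.1 and linear below) in all 14 libraries, green for MSC, purple for LSK and orange for LK cells, open for PBS and filled for IL-1β. The green points of each gene lie above all purple and orange points.

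Mmp3, Mmp13 and Timp1 were hardly counted in the sorted cells, with 1 to 4 read pairs or none per group. They were too low to be tested in either population. With PBS the highest member in LSK cells was Timp2 at a mean of 5.35 RPKM, followed by Mmp2 (1.96), Mmp14 (1.48), Timp3 (1.37) and Mmp19 (0.493). Mmp14 and Timp3 overlapped in this order. In LK cells the highest was Mmp14 at 9.64 RPKM, followed by Timp2 (2.63) and Mmp19 (1.40), which did not overlap. The other members of LK cells were at means of 0.264 RPKM or lower.

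Under PBS, 5 of the 7 members tested differed between LSK and LK cells. Over all 13839 genes tested 31.8% were called, 19.4% higher and 12.4% lower in LSK cells. Mmp2 was at 7.97, 6.66 and 7.49 CPM in LSK cells and at 0.79, 0.87 and 1.07 CPM in LK cells (PBS replicates 1, 2 and 3). It was higher in LSK cells by 3.00 on the log2 scale (SE 0.55, edgeR adjusted p = 0.00156). Timp3 was at 19.2, 7.44 and 10.7 CPM in LSK cells and at 2.78, 0.87 and 2.15 CPM in LK cells, a log2 difference of 2.71 (SE 0.53, edgeR adjusted p = 0.00250). Neither gene overlapped between the populations. Timp2 was also higher in LSK cells, at 26.1, 11.3 and 32.6 CPM against 10.1, 9.10 and 12.4 CPM. Replicate 2 of LSK cells lay within the LK range. The log2 difference was 1.16 (SE 0.39, edgeR adjusted p = 0.0393), and the call was lost in 7 of the 10 fits that left out a library, whichever LK library was left out and without LSK PBS replicate 1 or 3, at adjusted p from 0.0620 to 0.141.

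Mmp14 and Mmp19 were lower in LSK than in LK cells. Mmp14 was at 10.97, 7.60 and 11.1 CPM in LSK cells and at 51.7, 59.5 and 65.9 CPM in LK cells. The log2 difference was -2.57 (SE 0.21, edgeR adjusted p = 1.6e-05), and it was called in every fit that left out a library. Mmp19 was at 2.41, 1.72 and 1.70 CPM in LSK cells and at 4.13, 3.96 and 7.15 CPM in LK cells, a log2 difference of -1.37 (SE 0.38, edgeR adjusted p = 0.0168). Without LK PBS replicate 3 the Mmp19 call was lost (adjusted p = 0.0759). Among the other MMP and TIMP genes, 6 were tested. Mmp15, a membrane-bound MMP, was higher in LSK cells (log2 difference 2.42) and Mmp27 lower (-5.29). Mmp27 had only 1, 0 and 0 counts in the LSK PBS libraries, against 14, 35 and 15 in LK cells, so the size of its difference is uncertain. Reck, a membrane inhibitor of MMPs, was higher in LSK cells (1.58), and Lcn2 (-1.19) and Bsg (-0.98), an inducer of MMPs, were lower, among 7 regulators tested. Of 6 ADAM and ADAMTS genes tested, Adamts12 (4.53), Adam9 (1.42) and Adam15 (1.20) were higher in LSK cells. Adamts12 had only 1, 2 and 1 counts in the LK PBS libraries, against 15, 57 and 20 in LSK cells. Ctss (0.97) was higher among 4 cathepsin genes, and Rel (1.99), Nfkb2 (1.02) and Nfkb1 (0.54) among 11 AP-1 and NF-κB genes. No plasminogen activation gene was called, of 3 tested. All 8 stem and progenitor markers were called higher in LSK than in LK cells. Among them is Ly6a, the gene of Sca1, for which LSK cells were sorted, so its call follows from the sort.

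In LSK cells no member was called between IL-1β and PBS by edgeR, of 6 tested. Only 0.632% of all 13132 genes tested were called. At an unadjusted p under 0.05, 5 of the 6 members and 2431 of all genes passed. The median log2 fold change of the 6 members was -0.28, and that of all genes tested was -0.06. PBS and IL-1β libraries were fully separated in 5 of the 6 members, beside 39.6% of all genes tested. DESeq2 called 3 members, Mmp9, Mmp19 and Timp3. No member was called by edgeR without PBS replicate 2 or with any other library left out.

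Mmp9 was close to absent from PBS-treated LSK cells, with counts of 3, 0 and 0 in replicates 1, 2 and 3, and had 46 and 7 counts with IL-1β. In CPM these were 0.219, 0 and 0 against 5.60 and 1.74, so the treatments did not overlap. The ratio of the summed counts at equal depth was 62.8 with a 95% exact interval of 20.3 to 314, which covers counting error only. The edgeR adjusted p was 0.115 and that of DESeq2 0.00683. Mmp9 passed the filter on low counts through its IL-1β libraries alone, and most of its counts came from IL-1β replicate 1. Mmp19 was at 2.41, 1.72 and 1.70 CPM with PBS and at 8.88 and 7.19 CPM with IL-1β (log2 fold change 2.04, SE 0.63, edgeR adjusted p = 0.149, DESeq2 0.0259). Mmp14 was at 10.97, 7.60 and 11.1 CPM with PBS and at 15.8 and 17.4 CPM with IL-1β (log2 fold change 0.74, SE 0.38, edgeR adjusted p = 0.323). In all 3 genes the IL-1β libraries had the higher values.

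Timp3, Timp2 and Mmp2 had lower mean values in LSK cells with IL-1β. Timp3 was at 19.2, 7.44 and 10.7 CPM with PBS and at 4.14 and 2.23 CPM with IL-1β (log2 fold change -1.93, SE 0.60, edgeR adjusted p = 0.150, DESeq2 0.0379). Timp2 was at 26.1, 11.3 and 32.6 CPM with PBS and at 6.08 and 13.1 CPM with IL-1β, where PBS replicate 2 lay between the IL-1β libraries. Mmp2 was at 7.97, 6.66 and 7.49 CPM with PBS and at 3.41 and 1.49 CPM with IL-1β (log2 fold change -1.55, SE 0.62, edgeR adjusted p = 0.236). Mmp12 was too low to be tested and rested on PBS replicate 2, at 3.52 CPM against 0.219 to 0.365 CPM in the other LSK libraries. The ratio of summed MMP to TIMP levels was 0.553, 1.09 and 0.482 under PBS, against 3.33 and 1.46 under IL-1β. The summed MMP level was 4.56, 3.84 and 4.11 RPKM under PBS, against 7.03 and 5.49 RPKM under IL-1β. The summed TIMP level was 8.26, 3.52 and 8.53 RPKM under PBS, against 2.11 and 3.76 RPKM under IL-1β. These sums were not tested.

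In LK cells no member was called either, of 6 tested, whereas 9.34% of all 12835 genes were. At an unadjusted p under 0.05, 5 of the 6 members and 3176 of all genes passed, and DESeq2 called Mmp19. The members had a median log2 fold change of -0.53, against -0.03 in all genes tested. PBS and IL-1β libraries were fully separated in 5 of the 6 members, 1 higher and 4 lower with IL-1β, beside 45.7% of all genes tested. Mmp19 was at 4.13, 3.96 and 7.15 CPM with PBS and at 10.5 and 13.2 CPM with IL-1β. The log2 fold change was 1.22 (SE 0.33), with an edgeR adjusted p of 0.0516, and of 0.00108 without PBS replicate 3. Mmp14 was at 51.7, 59.5 and 65.9 CPM with PBS and at 44.0 and 42.4 CPM with IL-1β (log2 fold change -0.45, SE 0.14, edgeR adjusted p = 0.0791).

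Timp2 and Timp3 were at lower values in LK cells with IL-1β, and Timp1 was too low to be tested. Timp2 was at 10.1, 9.10 and 12.4 CPM with PBS and at 7.42 and 6.42 CPM with IL-1β (log2 fold change -0.60, SE 0.26, edgeR adjusted p = 0.190). Timp3 had 35, 17 and 30 counts under PBS, against 3 and 2 under IL-1β, and at equal depth it was 4.91 times higher with PBS (95% exact interval 2.02 to 15.5, counting error only; edgeR adjusted p = 0.107). Mmp12 had 43 counts over the PBS libraries and 2 over the IL-1β libraries, 6.44 times higher with PBS (interval 1.68 to 54.9; edgeR adjusted p = 0.158). Mmp2 was at 0.79, 0.87 and 1.07 CPM with PBS and at 3.31 and 0.96 CPM with IL-1β, and IL-1β replicate 1 alone was high. Mmp9, not tested, had 1, 0 and 1 counts under PBS, against 13 and 1 under IL-1β, so its total of 14 came almost entirely from IL-1β replicate 1. The ratio of summed MMP to TIMP levels was 3.31, 4.73 and 3.77 under PBS, against 6.10 and 6.02 under IL-1β.

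Neutrophil markers were higher in sum with IL-1β in the sorted cells. In LSK cells their sum over 10 genes was 1855 to 2427 CPM under PBS, against 8161 and 8412 CPM under IL-1β. Most of it was Mpo, at 1804 to 2297 CPM against 7379 and 7374 CPM. In LK cells the sum was 3652 to 7946 CPM under PBS, against 13814 and 16068 CPM under IL-1β, with Mpo at 3189 to 6840 CPM against 11309 and 12955 CPM. The markers Ngp and Ltf were higher in IL-1β replicate 1 than in replicate 2. Ngp was at 21.2 against 3.97 CPM in LSK and at 51.7 against 11.6 CPM in LK cells. Ltf was at 19.1 against 3.22 CPM and at 18.3 against 4.01 CPM. In LSK cells 2 of 7 tested were called higher, Mpo and Elane, and in LK cells 4 of 8, while Ly6g had 0 counts in all libraries. Of the 8 stem and progenitor markers, 3 fell in LSK and 1 in LK cells. The 18 macrophage markers summed in LSK cells to 197 to 227 CPM under PBS, against 107 and 162 CPM under IL-1β, and in LK cells to 126 to 194 CPM against 91.4 and 116 CPM. The part of these markers, and of the lower depth of the IL-1β libraries, in the member values was not tested.

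Of the other genes of the system, 36 were tested in LSK and 36 in LK cells. In LSK cells 1 was called (2.78%, against 0.632% of all genes tested), and in LK cells 7 were (19.4%, against 9.34%). Lcn2 rose in both, with 0.470 to 1.75 CPM under PBS and 123 and 148 CPM under IL-1β in LSK cells (log2 fold change 6.71), and 1.85 to 4.15 CPM against 174 and 120 CPM in LK cells (5.65). It was the only called gene in LSK cells among the 5 other MMP and TIMP, 3 plasminogen activation, 7 regulator, 6 ADAM and ADAMTS, 4 cathepsin and 11 AP-1 and NF-κB genes tested. In LK cells Reck (2.47) rose with Lcn2 among 7 regulators, Adam9 (1.15) and Adam15 (0.96) rose among 5 ADAM and ADAMTS genes, and Serpine2, an inhibitor of plasminogen activators, rose among 3 genes of plasminogen activation (2.76). Ctss, cathepsin S, fell by 2.49 among 4 cathepsin genes and Rela fell by 0.60 among 11 AP-1 and NF-κB genes. The AP-1 gene Fos varied widely within PBS, from 4.02 to 116 CPM in LSK and from 3.73 to 135 CPM in LK libraries. None of 6 other MMP and TIMP genes tested in LK cells was called. Mmp8 was at or under 0.973 CPM in every LSK and 1.19 CPM in every LK library. Mmp10 had 1 count in LSK cells, in an IL-1β library, and 0 in LK cells.

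The responses of LSK and LK cells were compared directly, since Mmp14 and Mmp2 had opposite signs in them. None of 7 members tested was called for the difference of the responses, and 0.0289% of all 13839 genes were. At an unadjusted p under 0.05, 2 members and 1967 of all genes passed. For Mmp14 the LSK response was higher than the LK response by 1.15 on the log2 scale (SE 0.33, edgeR adjusted p = 0.192), and DESeq2 called it (adjusted p = 0.0307). For Mmp2 the difference was -2.82 (SE 0.85, edgeR adjusted p = 0.206). Mmp19 had higher values with IL-1β in all 3 populations, with log2 fold changes of 0.73 in MSC, 2.04 in LSK and 1.22 in LK cells, and passed the test in MSC. The difference of its LSK and LK responses was 0.79 (SE 0.59).

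**Figure D5:**
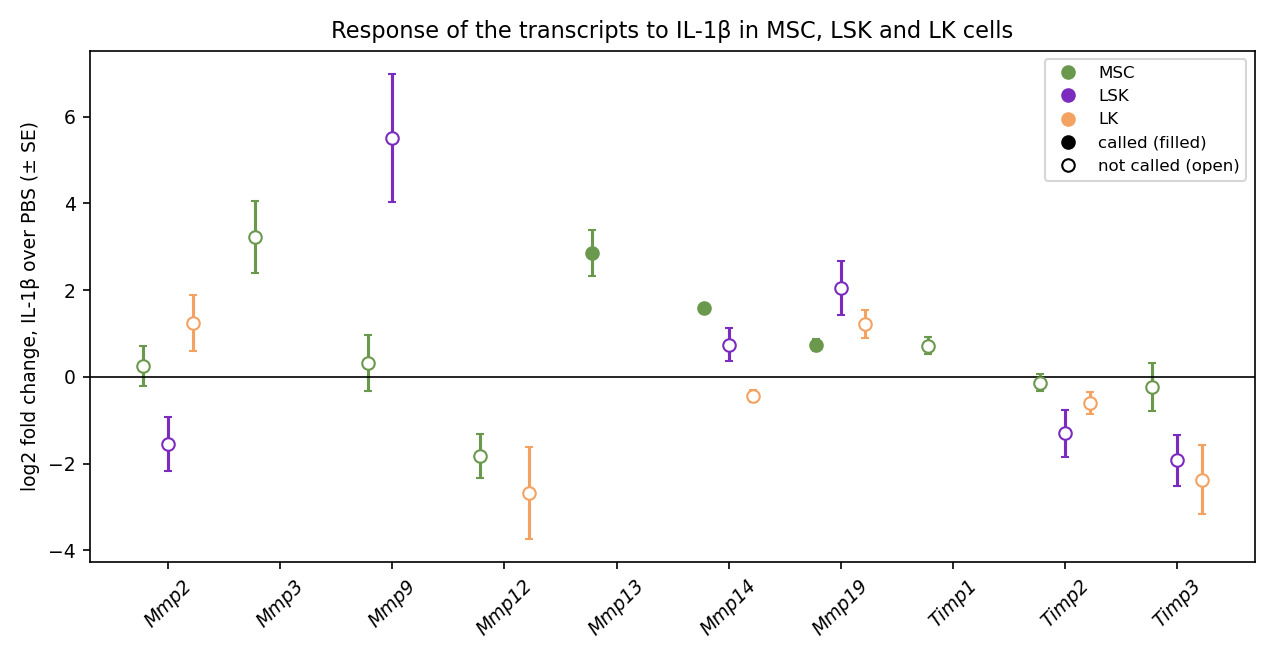
Log2 fold change of IL-1β over PBS with its standard error for each member that was tested in MSC (green), LSK (purple) and LK cells (orange), filled where called. Filled points are those of Mmp13, Mmp14 and Mmp19 in MSC, and Mmp14 is above 0 in MSC and LSK and below 0 in LK cells.

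The genes whose level across all 14 libraries was most like that of a called member were searched among 15254 genes, on log2 RPKM. Mmp13 was closest to Rspo3 (Pearson r = 0.998), Mmp14 to Ccdc71l (0.972), and Mmp19 to Gas7 (0.989). Timp2 was closest to Mxra8 (0.997), Timp3 to Capn2 (0.984) and Mmp2 to Entpd1 (0.990). The libraries of a population share source and table, and MSC and sorted cells form separate groups, so these values describe the contrast between populations and carry no test.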

How the data were processed

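RNA sequencing counts of 14 libraries were analysed. Read pairs were counted per gene by the authors, without normalization, and the deposited tables hold these counts and the gene length in 3 sheets. Per the labels' processing notes and the file headers, reads were trimmed with fastp 0.20.0, aligned to GRCm38 with HISAT2 2.0.1, sorted with SAMtools 1.10 and counted by strand on Ensembl genes with featureCounts 2.0.2. The methods name GenomicAlignments for counting and a NextSeq instrument, and the reporting summary a NovaSeq. Read pairs that fit several genes or places were not counted in the settings of the header. Whether related MMP genes (Mmp1a and Mmp1b, Mmp3 and Mmp10) lost reads in this way was not tested. The labels give the IL-1β dose with a damaged unit sign, and micrograms were taken from the methods. The MSC header names a further IL-1β library with no count column, not analysed here.

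Within each population, IL-1β was compared with PBS by the quasi-likelihood test of edgeR 4.0.16 under R 4.3.3 (filterByExpr, TMM, robust glmQLFit), fitted on all genes with Benjamini-Hochberg adjustment. LSK and LK cells were compared in a joint fit of 10 libraries. The SE is the log2 fold change divided by the square root of F. Exact intervals of count ratios condition on their sum. RPKM used TMM factors over all 14 libraries and the deposited lengths. The study's methods used DESeq2 with the same thresholds. DESeq2 1.42.0, limma-voom (limma 3.58.1) and the other alternatives are given in the closing section. Scripts were tested on simulated data.

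Replicate numbers come from the labels. Deviations of same-numbered LSK and LK libraries from their group means correlated at 0.21, 0.13 and 0.48 under PBS and at 0.10 under IL-1β. Under PBS, LSK replicate 1 with LK replicate 2 gave 0.12, and LSK replicate 2 with LK replicate 1 gave 0.17. Replicate 3 of either population gave -0.38 to -0.22 with the unlike numbers. Among the AP-1 genes, Fos was at 4.02, 116 and 27.0 CPM in LSK PBS replicates 1, 2 and 3. In the LK PBS replicates it was at 3.73, 135 and 21.1 CPM. Fosb was at 0.366, 39.4 and 3.86 CPM in LSK and at 0.0795, 34.6 and 2.50 CPM in LK cells. Fosl2 did not share its order, at 20.8, 13.5 and 16.3 CPM against 8.34, 10.7 and 12.0 CPM. The cause was not tested. Whether the numbers pair these populations is therefore not settled. A fit with the replicate number as a block called the same 5 members between them.

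The members and gene lists (other MMP and TIMP, plasminogen activation, regulators, ADAM and ADAMTS, cathepsins, AP-1 and NF-κB, cell type markers) were chosen with earlier results of these data known. By rule the text names all members, up to 4 called genes per list, Mmp8 and Mmp10, and for members called in some comparison the most alike genes. Xist and marker genes are named as checks. Symbols came from GENCODE M21 for the deposited identifiers, 55141 of 55487. Promoter sequences are RefSeq's for GRCm38.p6, and Mmp2, Mmp9 and Mmp19 were not matched. No replicate pair agreed within sampling noise, the lowest median chi-square over genes being 1.34.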

Additional observations from a re-analysis of the deposited data

Results flagged for a closer look

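Mmp14 had opposite directions in MSC and LK cells, where every IL-1β library was above every PBS library in MSC (log2 fold change 1.58) and below every PBS library in LK cells (-0.45). The difference between these populations was not tested, because MSC and LK cells differ in source, culture, genotype and sex of the cells.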

How the results depend on the processing

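Among the member values recomputed under an alternative, 432 kept their direction and their side of the threshold, 28 passed it, 14 lost it and 13 turned in sign. In MSC, DESeq2 called 6 members, and leaving out a library gave 0 to 8: 7 without PBS replicate 2, 8 without PBS replicate 3, 0 without IL-1β replicate 1 and 1 without IL-1β replicate 2. The lone library was then assumed to vary like the other group. In LSK cells DESeq2 called 3 members, no filter 2 and a joint fit with LK cells 2. In LK cells DESeq2 called 1, DESeq2's size factors 1, no filter 3, the replicate block 2 (Mmp19 and Timp3), and leaving out a library 0 to 1. DESeq2 called 1 member for the difference of the responses. Between LSK and LK cells, leaving out a library gave 3 to 5. The sign turned with limma-voom for Timp3 in MSC (0.019) and, between LSK and LK cells, for Mmp9 (-0.011) and Mmp12 (-0.49; -0.47 with the replicate block). The values over fits that left out a library ran in MSC from -0.29 to 1.10 for Mmp2, -0.31 to 1.77 for Mmp9, -0.37 to 0.16 for Timp2 and -0.83 to 0.80 for Timp3, for the difference of the responses from -0.21 to 4.56 for Mmp12 and -0.10 to 0.96 for Timp3, and between LSK and LK cells from -2.40 to 1.15 for Mmp9 and -1.70 to 0.92 for Mmp12. The cause was not tested.

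Over all genes and alternatives, the number called ran from 38 to 3819 in MSC (1515 as reported), 3 to 1228 in LSK (83), 66 to 2409 in LK cells (1199), 0 to 398 for the difference of the responses (4) and 2741 to 4985 between LSK and LK cells (4394). Upper-quartile factors in MSC gave 817 higher and 831 lower genes, against 945 and 570. Within LSK and LK cells PBS and IL-1β libraries share a number only (correlations of -0.10 to 0.13), and the block changed no other member call. No paired analysis was possible in MSC because the treatments share 1 replicate number. For Mmp3, Mmp13 and Timp1 in the sorted cells, with at most 4 read pairs counted per group, a difference between treatments was not detectable at this depth.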
